A study of Oryza sativa with 18 samples.

Results

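The auxin response genes described here are 31 Aux/IAA and 25 ARF loci of rice, 56 in all, of which 55 are among the 28251 loci listed in the expression tables. They were chosen by locus number and not by any measured value, although earlier results of these data were known. Aux/IAA proteins are short-lived repressors of auxin response. When auxin binds the F-box receptors of the TIR1/AFB family, the Aux/IAA proteins are marked for degradation, and the auxin response factors (ARF), the DNA-binding proteins that they hold in check together with TOPLESS corepressors, are released. Many Aux/IAA genes are themselves rapidly induced by auxin, so the family is both a brake on the response and one of its targets, and auxin-type regulators are what keeps rice callus dividing in culture.

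The samples were callus cultures of *Oryza sativa*, grown from the scutellum of mature seed in the dark on medium that contained the synthetic auxin 2,4-D, and sequenced 21 days into subculture, in 6 groups of 3 libraries. YIL25 is an introgression line of the indica cultivar Teqing that carries segments of a common wild rice (Yuanjiang, *O. rufipogon*) on the short arms of chromosomes 2, 3 and 5, among them the wild allele of BOC1, which encodes an SRO-type regulator of oxidative stress responses. pCPL is Teqing transformed with the whole BOC1 gene of YIL25, its own promoter included, and pOE is Teqing transformed with the BOC1 coding sequence of YIL25 under a Ubiquitin promoter. The study asked what BOC1 changes in callus that browns less or more, and each line was compared with its own untransformed Teqing libraries, which are called Teqing1 for YIL25, Teqing2 for pCPL and Teqing3 for pOE. How many transformation events stand behind the pCPL and pOE libraries, and whether replicates came from separate cultures, is not stated in the sources used here beyond the words biological replicates, so the p-values below measure the spread between these libraries.

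Values are FPKM, read fragments scaled to exon length and to a library size, by definition the mapped reads. They can be compared between genes because they are per length. A row was found for 55 of the 56 loci in the pCPL and pOE tables, all but LOC_Os01g48450, and for 17 in the YIL25 table, which holds only chromosomes 1 and 2 and the start of 3. Lines were compared with their own Teqing by limma on log2(FPKM + 1), and genes entered the fit if 1 of the 2 group means exceeded 1 FPKM. Below, rose and fell mean a Benjamini-Hochberg adjusted p under 0.05 from this fit, and called means that the study's own limits were met, at least 2-fold at an adjusted p under 0.001. Fold changes were taken from log2(FPKM + 1), a scale that shrinks those of weakly expressed genes, and are given with their standard error (SE) for the main genes.

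Reads over genes amounted to between 16620557 and 26298032 per library in the pCPL, pOE, Teqing2 and Teqing3 libraries, and the libraries behind YIL25 and Teqing1 were estimated at 35443349 to 43391615 reads. The library size behind the FPKM was below the reads over genes in pCPL and Teqing3 and above them in Teqing2 and pOE. The reason was not tested. BOC1 itself (LOC_Os03g12820) was at 102 ± 1.38 FPKM in pCPL, against 57.6 ± 0.324 in Teqing2, and at 579 ± 4.42 in pOE, against 65.5 ± 2.65 in Teqing3 (SD, n = 3, as for every mean that follows), so the transgenic libraries matched their labels. The callus identity was checked on markers taken by locus number. The 3 loci of dividing cells were at 12.5 to 84.4 FPKM as group means (all 3 rose in pOE, by 0.42 to 0.64 on the log2 scale, and in pCPL 2 rose and 1 fell), the embryo regulator at LOC_Os11g19060 at 40.4 to 83.9, and 2 loci of the Rubisco small subunit at 0 to 0.0710. A second regulator, LOC_Os03g51690, had group means of at most 0.418 FPKM, and the 4 endosperm storage loci of at most 6.504, with LOC_Os01g55690 called higher in pCPL at 1.39 FPKM, against 0.202 in Teqing2, and LOC_Os10g26060 lower there without a call, at 3.39 against 6.504. Of the other green-tissue loci, LOC_Os01g41710 was called higher in pOE, at 3.26 FPKM, against 0.507 in Teqing3, and LOC_Os03g39610 had group means of at most 0.359. One locus of that list, LOC_Os09g17740, was called lower in both pCPL and pOE. It stood at 12.3 FPKM in pCPL, against 54.9 in Teqing2 (log2 fold change -2.07), and at 3.02 in pOE, against 49.0 in Teqing3 (-3.64). The part of these marker shifts in the results was not tested. In bulk callus, fewer cells of a type and less RNA per cell cannot be told apart.

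Most members of both families were expressed. Over the 12 libraries of the pCPL and pOE tables, 18 of 25 ARF loci and 19 of 30 Aux/IAA loci averaged more than 10 FPKM, and 10 Aux/IAA loci but only 3 ARF loci averaged more than 50. The family median was 28.0 FPKM for Aux/IAA and 17.8 FPKM for ARF. The most abundant Aux/IAA gene was LOC_Os06g22870, with a mean of 229 FPKM, followed by LOC_Os02g56120 with 142, LOC_Os02g57250 with 134 and LOC_Os05g48590 with 117. Among the ARF genes LOC_Os08g40900 led with 74.0 FPKM, from a short gene model described further on, ahead of LOC_Os01g70270 with 62.0, LOC_Os11g32110 with 50.2 and LOC_Os06g48950 with 40.9. Repressor transcripts were thus the more abundant of the families, and the order within each family shifted between groups.

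**Figure D1:**
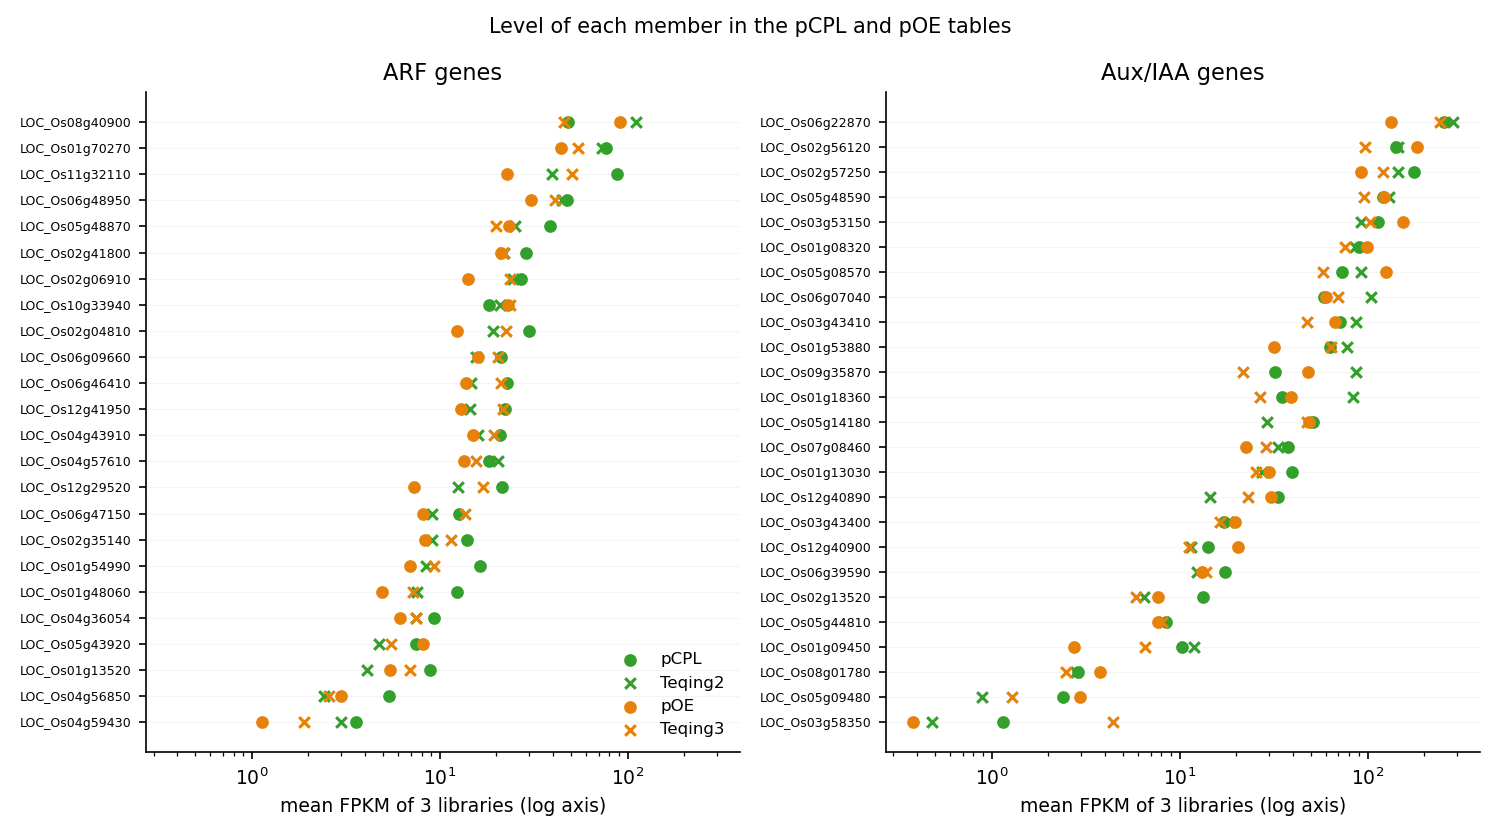
Mean FPKM (log axis, n = 3 libraries) of the 24 ARF genes on the left and the 25 Aux/IAA genes on the right that were tested in both the pCPL and pOE tables, ordered by their mean over 12 libraries. Filled circles are pCPL (green) and pOE (orange), and crosses are Teqing2 (green) and Teqing3 (orange). Most green circles of the ARF genes lie right of both crosses and most orange circles left of them, while LOC_Os09g35870, LOC_Os01g18360 and LOC_Os03g58350 of the Aux/IAA genes show the widest gaps between the Teqing crosses.

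In all, 1 ARF and 5 Aux/IAA loci stayed below the filter and were not tested. LOC_Os11g11420 and LOC_Os11g11430 had no read in any of the 12 libraries. LOC_Os06g24850 had at most 1 read and the ARF LOC_Os07g08520 at most 1, whereas LOC_Os11g11410 stood at 0.734 to 0.858 FPKM in pOE, against 0.152 to 0.430 in Teqing3, with at most 55 reads. LOC_Os02g49160 had a group mean of at most 0.767 FPKM in all 3 tables. The chromosome 11 loci carry consecutive locus numbers, and none of the 3 passed the filter.

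The ARF genes moved largely together, up in pCPL and down in pOE. In pCPL, 18 of the 24 tested ARF genes rose, 2 fell and 4 did not pass, beside 35.0% of all 21659 tested genes that rose and 35.6% that fell. The median ARF log2 fold change was 0.50, against -0.01 over all genes. In pOE, 3 rose, 18 fell and 3 did not pass, beside 35.3% and 36.8% of all 22122 tested genes, and the median was -0.36, against -0.00 over all genes. The steps were mostly small. At the study's thresholds 1 ARF gene was called higher and 1 lower in pCPL, where 7.84% and 5.97% of all genes were, and 0 higher and 2 lower in pOE, where 6.95% and 8.90% of all genes were, so the family held no more called genes than the background.

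By the gene models used, LOC_Os11g32110 (chromosome 11, 18935399 to 18941686 in the authors' IRGSP-1.0 coordinates, 3337 exon bases) was the ARF gene called higher in pCPL and one of the 2 called lower in pOE. Its pCPL libraries were at 88.5, 88.0 and 86.7 FPKM, against 41.4, 38.5 and 38.6 in Teqing2, 1.13 on the log2 scale (SE 0.0401, limma adjusted p = 1.31e-08). Its pOE libraries were at 23.4, 23.5 and 21.7 FPKM, against 50.9, 49.7 and 51.9 in Teqing3, -1.12 on the log2 scale (SE 0.0488, limma adjusted p = 6.10e-08). The groups did not overlap in either comparison, every pCPL library was above all Teqing libraries of both tables and every pOE library below all of them. The study lists this gene among those that are up in YIL25 and pCPL and down in pOE, a choice made on these libraries, so its direction here is not independent evidence, and it lies outside the YIL25 table analysed here.

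LOC_Os12g29520, on chromosome 12 from 17571844 to 17577848, was the other ARF gene called lower in pOE. It was at 7.73, 6.53 and 7.68 FPKM in pOE, against 17.4, 17.7 and 16.0 in Teqing3, -1.12 on the log2 scale (SE 0.0816, limma adjusted p = 1.81e-06). The pCPL libraries had 21.8, 21.2 and 21.4 FPKM, against 11.4, 13.2 and 13.0 in Teqing2, and the gene rose by 0.73 on the log2 scale (limma adjusted p = 6.40e-06), short of the 2-fold threshold. LOC_Os01g70270 and LOC_Os06g48950, also among the 4 most abundant ARF genes, moved less. LOC_Os01g70270 was at 73.7, 79.0 and 76.5 FPKM in pCPL, against 73.3, 73.1 and 72.0 in Teqing2 (log2 fold change 0.07, limma adjusted p = 0.121), and at 43.8, 45.0 and 44.3 in pOE, against 54.2, 51.5 and 57.3 in Teqing3 (-0.29, limma adjusted p = 0.000453). LOC_Os06g48950 was at 46.5, 48.4 and 47.0 FPKM in pCPL, against 45.4, 44.1 and 45.2 in Teqing2, and at 30.3, 30.2 and 30.9 in pOE, against 41.2, 40.6 and 41.1 in Teqing3. For both genes the pCPL libraries stood just above Teqing2 without passing the test, and the fall in pOE passed it.

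**Figure D2:**
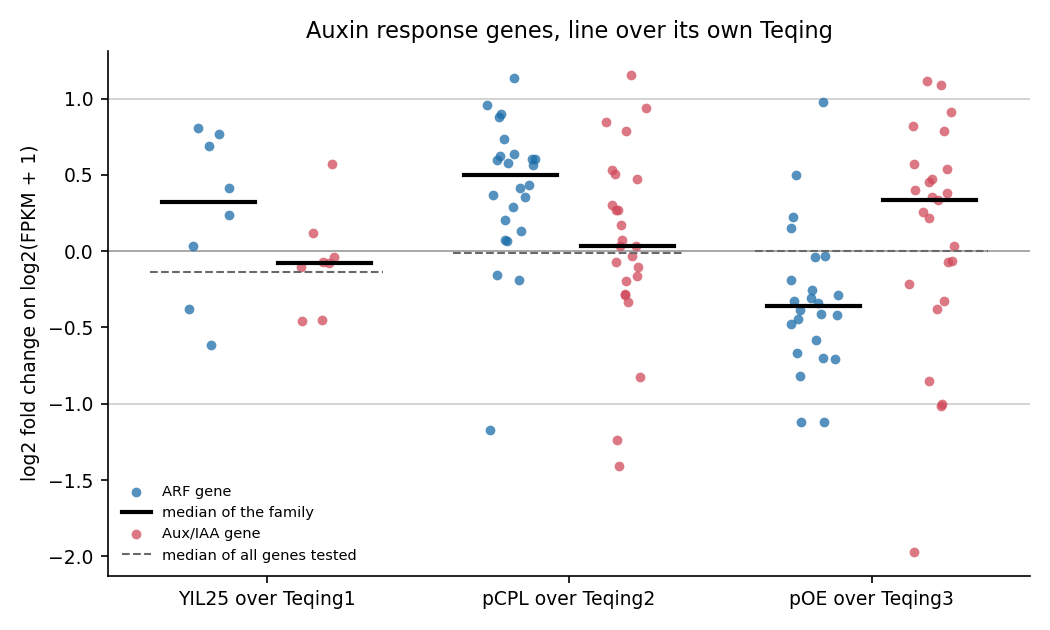
log2 fold change on the log2(FPKM + 1) scale of every tested member, line over its own Teqing, with ARF genes in blue and Aux/IAA genes in red. Black bars are family medians and dashed lines the median of all genes tested, and grey lines mark a fold change of 2 in either direction. The ARF points centre on 0.50 in pCPL and on -0.36 in pOE, whereas the Aux/IAA points spread on both sides of 0 in both. Only 8 genes of each family were tested in YIL25.

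The ARF genes can be divided by kind. ARF proteins with a glutamine-rich middle region act as transcriptional activators, most others as repressors, and several ARF transcripts are cut by microRNAs (miR160, miR167) or by trans-acting siRNAs (tasiR-ARF). These subgroups were assigned by locus number from general knowledge of the family and were not checked against sequence, differences between them were not tested, and their counts stand beside the shares of all genes that rose (35.0% in pCPL, 35.3% in pOE) and fell (35.6% and 36.8%). Of the 9 activator-type genes, pCPL had 6 that rose and 2 that fell (median 0.42 on the log2 scale) and pOE had 1 that rose and 7 that fell (-0.42). The 4 tasiR-ARF targets all rose in pCPL, by 0.56 to 0.88, but in pOE 2 rose and 2 fell (median -0.08). LOC_Os05g48870, one of them, was at 22.9, 23.6 and 23.3 FPKM in pOE, against 19.9, 19.7 and 19.9 in Teqing3, and LOC_Os05g43920, another, at 8.49, 7.78 and 8.20, against 5.62, 4.84 and 5.97. They and LOC_Os08g40900 were the ARF genes that rose in pOE. The 4 miR167 targets all fell in pOE (median -0.64), and 3 of them rose in pCPL (0.37 over the 4). With the trend on transcript length removed, as described further on, LOC_Os04g57610 no longer fell in pOE (0.01, limma adjusted p = 0.888). LOC_Os02g06910 then no longer rose in pCPL (-0.05, limma adjusted p = 0.316). Of the 4 miR160 targets 3 rose in pCPL (median 0.36) and 2 fell in pOE (-0.19), while LOC_Os10g33940 passed the test in neither line.

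LOC_Os08g40900, an activator-type locus by its number, is represented by 2 neighbouring gene models that moved in opposite directions. The model with the higher mean, Os08g0520500, is a single stretch of 608 bases on chromosome 8 (25870837 to 25871444), and it gave 46.1, 50.6 and 48.4 FPKM in pCPL, against 113, 107 and 111 in Teqing2 (log2 fold change -1.17, SE 0.0421, limma adjusted p = 1.43e-08). The longer model, Os08g0520550 (25873389 to 25877678, 2046 exon bases), gave 19.99, 20.1 and 21.2 FPKM in pCPL, against 3.25, 3.22 and 2.59 in Teqing2 (log2 fold change 2.42, limma adjusted p = 1.41e-08). In pOE both went the other way. The short model was at 87.7, 98.8 and 87.3 FPKM in pOE, against 41.2, 49.7 and 47.1 in Teqing3 (0.97), and the long model at 6.66, 7.46 and 7.47, against 25.2, 22.2 and 24.9 (-1.61).

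The single ARF gene called lower in pCPL, and the largest ARF rise in pOE, thus rest on the short model, and the long one moved as the other ARF genes did. With both models summed, the pCPL log2 fold change was -0.71 and no longer past the 2-fold threshold. The FPKM of the long model over the short one was 0.423 ± 0.0226 in pCPL, against 0.0274 ± 0.00364 in Teqing2, and 0.0790 ± 0.00569 in pOE, against 0.529 ± 0.0829 in Teqing3. Opposite movement within a locus was not confined to this one. Of the loci with several tested models, 150 of 286 (52.4%) in pCPL and 122 of 297 (41.1%) in pOE had models that changed in opposite directions at an adjusted p under 0.05, and 21 and 7 did so by 2-fold each way. The sources used here do not say whether counting used the strand, so reads of overlapping antisense transcripts, if any, cannot be told apart.

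**Figure D3:**
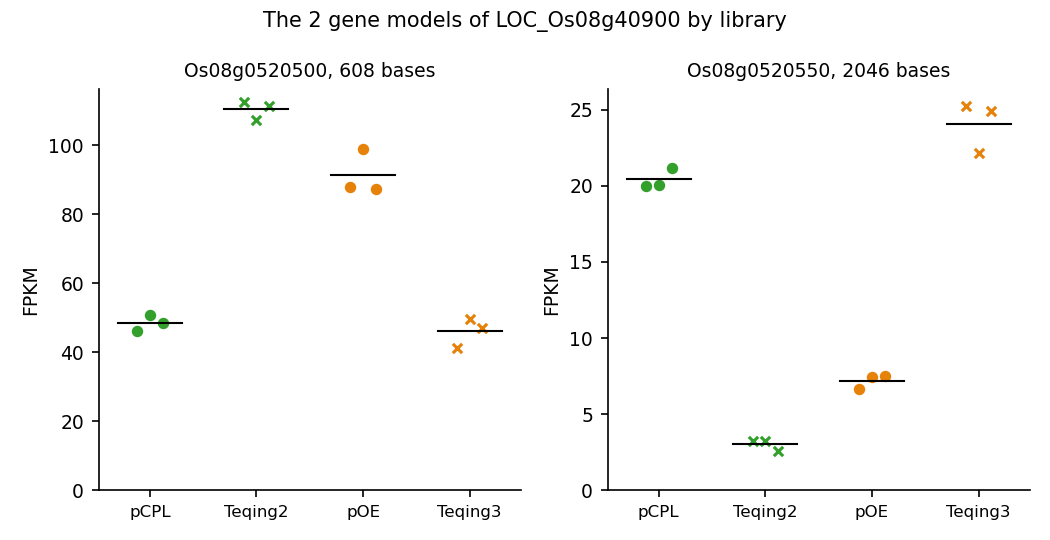
FPKM of the 2 gene models of LOC_Os08g40900 in every library of the pCPL and pOE tables, with circles for the transgenic lines, crosses for their Teqing and black bars for group means. The short model (left) is highest in pOE and Teqing2, with means of 91.3 and 110 FPKM, and the long model (right) is highest in pCPL and Teqing3, with 20.4 and 24.1 FPKM.

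Beside Teqing2, the Aux/IAA genes showed no common direction in pCPL. Of 25 tested, 10 rose, 9 fell and 6 did not pass, the median was 0.04 on the log2 scale (-0.03 to 0.11 when 1 library at a time was left out), and 1 was called higher and 2 lower. In pOE, 15 rose, 7 fell and 3 did not pass, with a median of 0.34, against -0.00 over all genes, and 2 were called higher and 3 lower. These counts are near the percentages of all genes given above, except for the 15 that rose in pOE.

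LOC_Os09g35870 (chromosome 9, 20641465 to 20643139) had the largest fall of the family in pCPL, and in pOE it was called higher, as was LOC_Os05g08570, by amounts that differed by less than their SE. It was at 31.2, 30.9 and 34.3 FPKM in pCPL, against 84.4, 92.2 and 84.5 in Teqing2, -1.41 on the log2 scale (SE 0.0532, limma adjusted p = 1.96e-08). In pOE it was at 49.2, 45.3 and 49.7 FPKM, against 21.2, 23.0 and 20.7 in Teqing3, 1.12 on the log2 scale (SE 0.0580, limma adjusted p = 1.93e-07). It was the one Aux/IAA gene called in both lines, in opposite directions. The lines themselves were closer to each other than the Teqing groups were, since Teqing3 averaged 21.6 FPKM and Teqing2 87.0, and all libraries of both lines lay between them.

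LOC_Os01g18360, on chromosome 1 from 10312342 to 10314826, had the same pattern. Its libraries were at 35.1, 36.6 and 33.4 FPKM in pCPL, against 85.9, 81.3 and 84.2 in Teqing2 (log2 fold change -1.24, SE 0.0443, limma adjusted p = 1.42e-08). They were at 38.6, 40.5 and 39.1 FPKM in pOE, against 27.5, 25.7 and 27.2 in Teqing3 (0.54, limma adjusted p = 6.82e-06). In the YIL25 table the gene was at 38.8, 41.2 and 39.5 FPKM in YIL25, against 43.8, 39.6 and 42.2 in Teqing1 (-0.07, limma adjusted p = 0.227), so the high level was seen in Teqing2 alone. LOC_Os05g08570 was called higher in pOE, at 127, 128 and 119 FPKM, against 62.8, 58.2 and 53.6 in Teqing3 (1.09, SE 0.0576, limma adjusted p = 2.13e-07), and it fell in pCPL to 74.3, 73.2 and 71.6 FPKM, against 91.6, 92.6 and 92.6 in Teqing2 (-0.33, limma adjusted p = 1.09e-05).

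LOC_Os12g40890 was the single Aux/IAA gene called higher in pCPL. It was at 34.4, 32.9 and 33.4 FPKM in pCPL, against 14.2, 15.5 and 13.9 in Teqing2 (log2 fold change 1.16, SE 0.0547, limma adjusted p = 8.22e-08), and it also rose in pOE, to 31.6, 29.7 and 30.9 FPKM, against 21.5, 25.4 and 22.3 in Teqing3 (0.40, limma adjusted p = 0.000457). Its neighbour on chromosome 12, LOC_Os12g40900, was at 15.0, 12.2 and 14.9 FPKM in pCPL, against 13.6, 11.1 and 9.99 in Teqing2 (0.27, limma adjusted p = 0.0603), and rose in pOE by 0.82 on the log2 scale (limma adjusted p = 7.73e-06). The other neighbouring pair, LOC_Os03g43400 and LOC_Os03g43410 on chromosome 3, rose together in pOE, by 0.26 and 0.47. In pCPL LOC_Os03g43410 fell by 0.28 and LOC_Os03g43400 did not pass (log2 fold change -0.07).

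The Aux/IAA genes called lower in pOE were 3. LOC_Os03g58350, the weakest of the tested members, was at 0.412, 0.198 and 0.533 FPKM in pOE, against 3.69, 4.75 and 4.78 in Teqing3 (log2 fold change -1.97, SE 0.144, limma adjusted p = 1.81e-06), with 5 to 130 reads per library. At this low level the size depends on the scale, and it was -3.29 with a pseudocount of 0.1 and -3.55 by voom on recovered reads. Its pCPL libraries were at 1.30, 1.12 and 1.03 FPKM, against 0.439, 0.438 and 0.569 in Teqing2, where it was nearly as low as in pOE, so the fall in pOE was not seen beside Teqing2. LOC_Os01g09450 was at 3.17, 2.82 and 2.21 FPKM in pOE, against 6.92, 6.13 and 6.48 in Teqing3 (-1.02, SE 0.117, limma adjusted p = 4.09e-05). LOC_Os01g53880 was at 32.1, 32.6 and 30.1 FPKM in pOE, against 64.8, 64.4 and 63.6 in Teqing3 (-1.002, SE 0.0441, limma adjusted p = 6.42e-08). Both also fell in pCPL, by 0.19 and 0.29 on the log2 scale, and were the lowest in pOE of all 4 groups. Their calls lay at the 2-fold threshold: without the third pOE library the log2 fold changes were -0.91 and -0.97, and without the first Teqing3 library -0.98 and -0.997, all short of it.

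**Figure D4:**
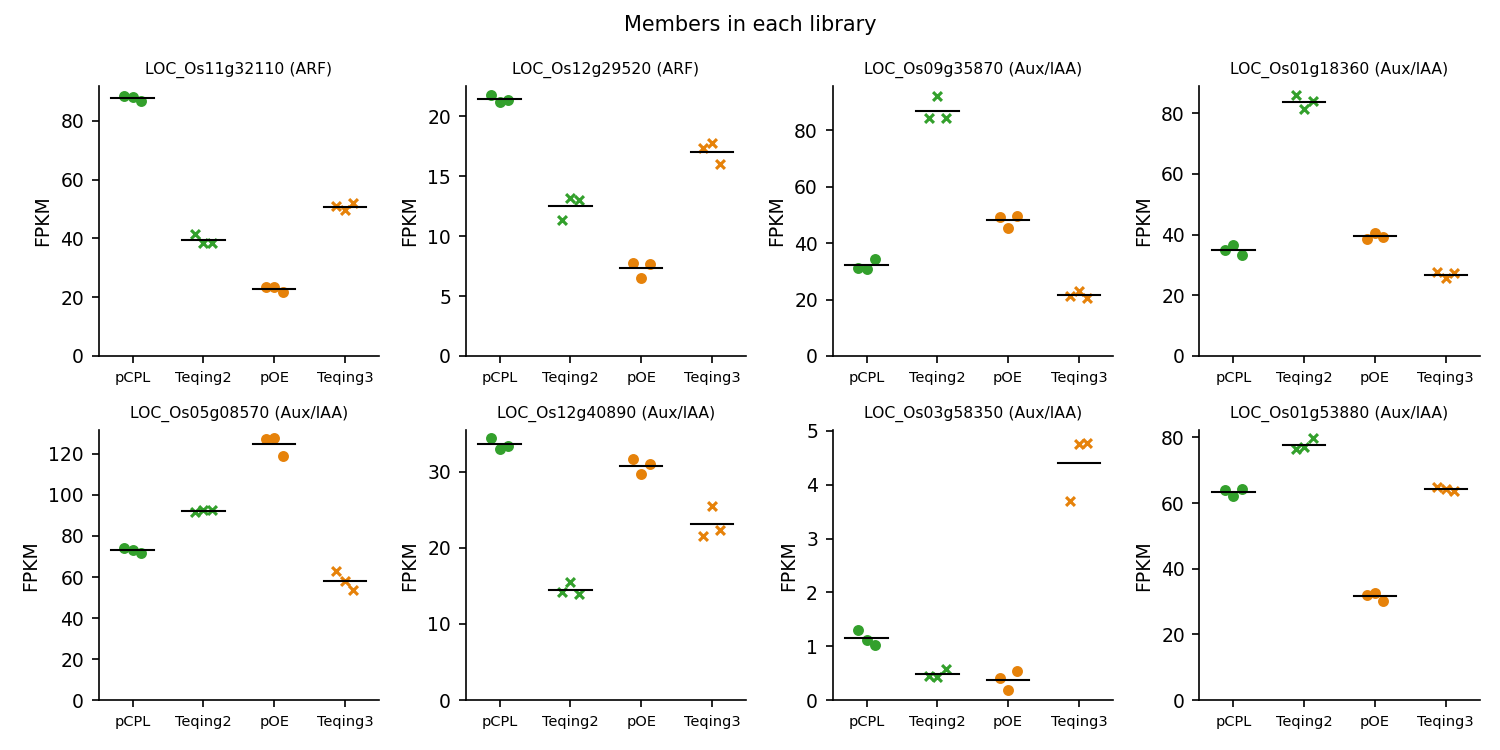
FPKM in every library of the pCPL and pOE tables for 2 ARF and 6 Aux/IAA genes, with circles for the transgenic lines, crosses for their Teqing and black bars for group means. LOC_Os11g32110 and LOC_Os12g29520 are highest in pCPL and lowest in pOE. LOC_Os09g35870 and LOC_Os01g18360 are highest in Teqing2, with means of 87.0 and 83.8 FPKM, and lowest in Teqing3, and LOC_Os03g58350 is high in Teqing3 alone.

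The abundant Aux/IAA genes kept their high level everywhere and, beside each line's own Teqing, shifted mainly in pOE. LOC_Os06g22870 was at 132, 134 and 136 FPKM in pOE, against 230, 253 and 244 in Teqing3 (log2 fold change -0.85, SE 0.0390, limma adjusted p = 8.47e-08), and at 259, 243 and 260 in pCPL, against 288, 294 and 270 in Teqing2 (-0.16, limma adjusted p = 0.00512). LOC_Os02g56120 went the other way in pOE, to 192, 179 and 178 FPKM, against 98.7, 94.8 and 97.1 in Teqing3 (0.91, SE 0.0390, limma adjusted p = 5.47e-08), while in pCPL it was at 143, 141 and 143, against 146, 149 and 141 in Teqing2 (-0.03, limma adjusted p = 0.406). With this exchange LOC_Os02g56120 was the most abundant member of the family in pOE, and LOC_Os06g22870 in pCPL, Teqing2 and Teqing3. LOC_Os02g57250 was at 93.2, 92.5 and 91.7 FPKM in pOE, against 120, 124 and 117 in Teqing3 (-0.38), and at 173, 179 and 177 in pCPL, against 145, 148 and 145 in Teqing2 (0.27). LOC_Os05g48590 was at 122, 124 and 120 FPKM in pOE, against 101, 92.0 and 93.8 in Teqing3 (0.35), and at 123, 119 and 122 in pCPL, against 133, 128 and 129 in Teqing2 (-0.10). Both passed the test in both lines, in opposite directions beside their own Teqing. In the order given, and without a test, the log2 differences of pOE from Teqing2 were -1.08, 0.33, -0.65 and -0.09. Those of pCPL from Teqing3 were 0.07, 0.55, 0.55 and 0.34. LOC_Os05g48590 averaged 122 FPKM in pOE and 121 in pCPL, while Teqing2 and Teqing3 were at 130 and 95.4.

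Set side by side, 14 of the 24 ARF genes tested in both tables rose in pCPL and fell in pOE, 1 fell in pCPL and rose in pOE, 2 rose in both and 1 fell in both. Of the 25 Aux/IAA genes, 3 rose in pCPL and fell in pOE, 5 did the reverse, 5 rose in both and 4 fell in both. Among all 20867 genes tested in both tables these shares were 21.4%, 18.5%, 5.99% and 8.02%, against 58.3%, 4.17%, 8.33% and 4.17% of the ARF genes and 12%, 20%, 20% and 16% of the Aux/IAA genes. The shares are descriptions over genes, which are not independent of each other.

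Summed over the families, repressor transcripts were fewer per ARF transcript in pCPL and more in pOE than in their own Teqing. The summed ARF level was 620 ± 9.10 FPKM in pCPL, against 529 ± 2.82 in Teqing2, and 414 ± 3.92 in pOE, against 485 ± 2.56 in Teqing3. The summed Aux/IAA level was 1482 ± 13.6 FPKM in pCPL, against 1593 ± 18.1 in Teqing2, and 1367 ± 21.1 in pOE, against 1218 ± 14.3 in Teqing3. The ratio of Aux/IAA to ARF was therefore 2.39 ± 0.0529 in pCPL, against 3.01 ± 0.0472 in Teqing2, and 3.30 ± 0.0439 in pOE, against 2.51 ± 0.0361 in Teqing3, and the groups did not overlap in either comparison. With LOC_Os08g40900 left out, the ratios were 2.59 in pCPL, against 3.81 in Teqing2, and 4.24 in pOE, against 2.78 in Teqing3. Beside the other line's Teqing, without a test, the gaps were smaller, 2.39 in pCPL against 2.51 in Teqing3 and 3.30 in pOE against 3.01 in Teqing2. The summed ARF level kept its direction there, at 620 FPKM in pCPL against 485 in Teqing3 and 414 in pOE against 529 in Teqing2. The summed Aux/IAA level turned, at 1482 FPKM in pCPL against 1218 in Teqing3 and 1367 in pOE against 1593 in Teqing2. The part of transcript length in these ratios was not tested. The highly expressed members dominate these sums, and a share of transcripts says nothing of the proteins.

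**Figure D5:**
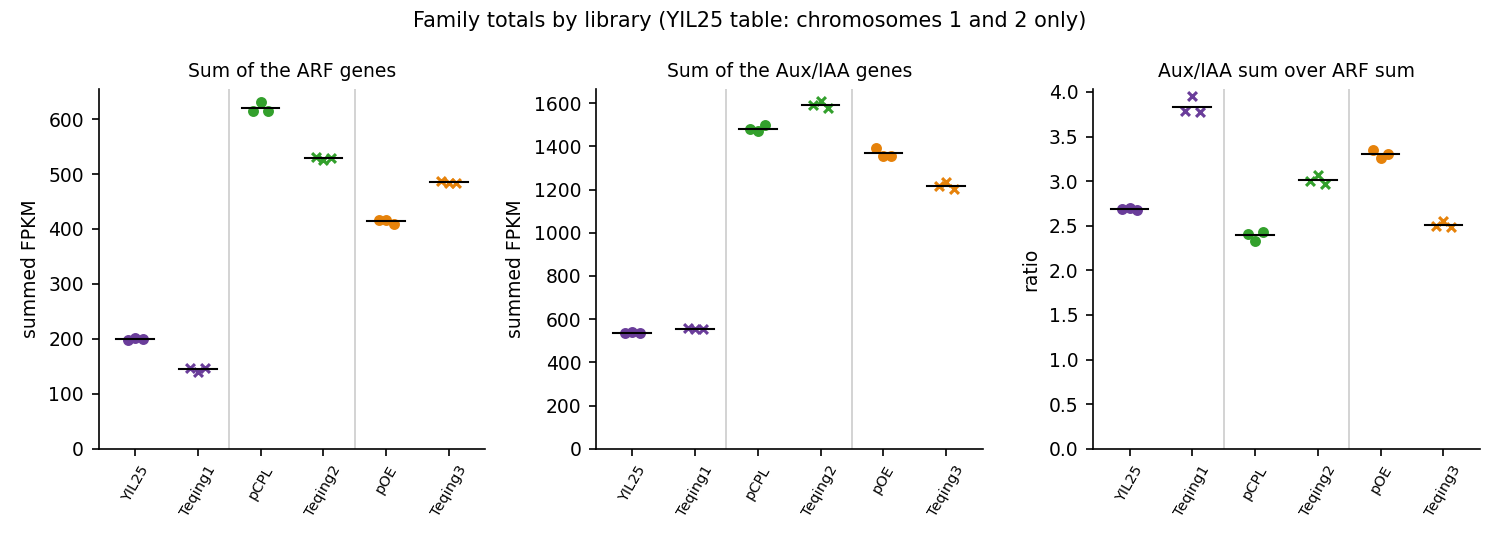
Summed FPKM of the ARF genes (left) and the Aux/IAA genes (middle) and their ratio (right) in each of the 18 libraries, with circles for the lines, crosses for Teqing and black bars for group means. The ratio is lower in YIL25 and pCPL than in their Teqing (2.69 against 3.84, and 2.39 against 3.01) and higher in pOE (3.30 against 2.51). The sums for YIL25 and Teqing1 cover only the 17 members in that table and are not comparable in level with the others.

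In YIL25, 8 genes of each family were tested, and none was called, where 8.41% of all 8196 tested genes were called higher and 12.7% lower. At an adjusted p under 0.05 in limma, 5 ARF genes rose and 2 fell, and 1 Aux/IAA gene rose and 3 fell, beside 29.5% and 43.2% of all genes. For Aux/IAA these counts were 5 higher and 2 lower with the length trend removed, and 4 higher and 2 lower under a median-of-ratios scaling. The median log2 fold change was 0.32 for ARF and -0.07 for Aux/IAA, against -0.13 over all genes, and that scaling moved all 3 up, to 0.49, 0.10 and 0.03. The balance and the sign of the Aux/IAA median thus depend on the processing.

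The tasiR-ARF targets LOC_Os01g48060 and LOC_Os01g54990 rose most in YIL25. The first was at 15.2, 15.0 and 16.6 FPKM in YIL25, against 8.31, 9.25 and 8.67 in Teqing1 (log2 fold change 0.77, SE 0.0637, limma adjusted p = 5.24e-05), and the second at 10.04, 10.5 and 10.6, against 6.01, 4.85 and 5.72 (0.81, SE 0.0832, limma adjusted p = 0.000146). Both also rose in pCPL and fell in pOE. LOC_Os01g70270, the most abundant ARF gene of that table, was at 91.9, 97.3 and 95.4 FPKM in YIL25, against 60.2, 54.3 and 61.4 in Teqing1 (0.69, limma adjusted p = 3.50e-05). LOC_Os01g13520 and LOC_Os02g35140 fell, by 0.62 and 0.38 on the log2 scale, although both rose in pCPL. LOC_Os01g53880 was the Aux/IAA gene that rose, to 86.9, 86.3 and 86.0 FPKM in YIL25, against 58.4, 55.98 and 58.8 in Teqing1 (0.57, limma adjusted p = 6.96e-06), and it fell in pCPL and pOE. LOC_Os01g08320 fell to 68.4, 71.4 and 72.8 FPKM in YIL25, against 94.4, 97.4 and 102 in Teqing1 (-0.46, limma adjusted p = 6.09e-05). Chromosome 2 members such as LOC_Os02g04810 and LOC_Os02g06910 may lie in a wild rice segment, whose borders the sources used here do not state.

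The Teqing groups differed among themselves at some members, so each line was also set beside the other line's Teqing, without a test because the tables were normalized separately. The log2 level of Teqing3 over Teqing2 differed by 1 or more at 3 Aux/IAA genes, LOC_Os09g35870 (-1.96), LOC_Os01g18360 (-1.61) and LOC_Os03g58350 (1.86), and at 1 ARF gene, LOC_Os08g40900 (-1.25). The families as a whole also differed between these Teqing groups. The median of Teqing3 over Teqing2 was 0.15 for ARF, with 15 of 24 genes higher, and -0.17 for Aux/IAA, with 6 of 25 higher. Over all 20867 genes tested in both it was 0.008, with 10540 higher. For ARF, 15 of 24 genes had every pCPL library above all 6 Teqing libraries and 0 had every one below, beside 12.7% and 14.1% of the 18240 loci tested in both tables. In pOE, 13 ARF genes lay below all 6 Teqing libraries and 1 above, beside 22.2% and 17.4% of all loci. For Aux/IAA, 8 of 25 lay above and 1 below in pCPL, and 10 above and 6 below in pOE. The ARF median was 0.29 for pCPL over Teqing3 and -0.19 for pOE over Teqing2, the same signs as beside their own Teqing but smaller. The Aux/IAA median was 0.33 for pCPL over Teqing3 and 0.09 for pOE over Teqing2, and by group means 22 of 25 Aux/IAA genes and 22 of 24 ARF genes were higher in pCPL than in Teqing3, while 12 Aux/IAA and 19 ARF genes were lower in pOE than in Teqing2. Of all 20867 genes tested in both, 9915 were higher in pCPL than in Teqing3 (median -0.02). Lower in pOE than in Teqing2 were 10931 of them (median -0.03). Whether the Aux/IAA genes shared a direction in pCPL, and how far they differed from the ARF genes there, thus depended on which Teqing stood beside the line. The size of the Aux/IAA rise in pOE depended on it too, with a median of 0.34 beside Teqing3 and 0.09 beside Teqing2.

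Transcript length moved with the fold changes and differs between the families. Among tested members the ARF models span 2037 to 4165 exon bases apart from the short model of LOC_Os08g40900, and the Aux/IAA models 859 to 3100. All genes in the ARF length window had a median log2 fold change of 0.09 in pCPL, where 41.6% rose and 27.5% fell, and of -0.16 in pOE, where 24.98% rose and 46.6% fell. With each library's trend on exon length removed, the ARF median was 0.36 in pCPL, with 16 genes that rose and 4 that fell, and -0.18 in pOE, with 4 that rose and 13 that fell. Over all genes the medians were then -0.05 and 0.05. In that fit 32.2% of all genes rose and 37.9% fell in pCPL, and 37.8% rose and 33.1% fell in pOE. The Aux/IAA medians were 0.02 and 0.35. The direction of the ARF family in pCPL and pOE was thus the same with the trend removed. Its size was smaller in both, 0.36 against 0.50 in pCPL and -0.18 against -0.36 in pOE. LOC_Os11g32110 (0.98 in pCPL and -0.91 in pOE) and LOC_Os12g29520 (-0.92 in pOE) came to lie just short of the 2-fold threshold, at limma adjusted p of 1.12e-05 or lower.

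The partners of the families were read from short lists. The 5 loci taken as TIR1/AFB-type auxin receptors split in direction. Of all genes 35.0% rose and 35.6% fell in pCPL, with 5.97% called lower, and 35.3% rose and 36.8% fell in pOE, with 6.95% called higher. In pCPL 1 rose and 4 fell, the median was -0.73 on the log2 scale and 2 were called lower, and in pOE 3 rose and 2 fell, with a median of 0.44 and 1 called higher. LOC_Os02g52230 moved most, at 2.85 ± 0.366 FPKM in pCPL, against 12.1 ± 0.777 in Teqing2 (-1.77, limma adjusted p = 2.22e-07), at 9.74 ± 0.360 in pOE, against 3.13 ± 0.156 in Teqing3 (1.38, limma adjusted p = 5.12e-07), and at 4.44 ± 0.372 in YIL25, against 12.02 ± 1.48 in Teqing1 (-1.25, limma adjusted p = 4.98e-05). This receptor locus was lower than its Teqing in the YIL25 and pCPL libraries and higher in pOE, and both of its Teqing means beside YIL25 and pCPL were between 12.02 and 12.1 FPKM while Teqing3 was at 3.13. Beside the other line's Teqing its log2 difference was -0.10 in pCPL and -0.28 in pOE.

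The more abundant receptor loci moved less. LOC_Os05g05800 was at 40.9 ± 1.02 FPKM in pCPL, against 68.5 ± 2.03 in Teqing2 (-0.73), and at 49.4 ± 0.243 in pOE, against 36.1 ± 1.45 in Teqing3 (0.44). LOC_Os04g32460 fell in both lines, by 0.33 in pCPL and 0.43 in pOE. LOC_Os03g08850 was called lower in pCPL, at 7.12 ± 1.19 FPKM, against 15.5 ± 1.28 in Teqing2 (-1.03, limma adjusted p = 2.47e-05), and LOC_Os11g31620 rose there by 0.44. In pOE LOC_Os03g08850 rose by 0.62 and LOC_Os11g31620 fell by 0.24. Beside the other line's Teqing, without a test, LOC_Os05g05800 differed the other way (0.18 in pCPL and -0.46 in pOE), as did LOC_Os11g31620 (-0.11 and 0.32). LOC_Os03g08850 differed by -0.05 in pCPL and, the other way, by -0.35 in pOE. LOC_Os04g32460 kept its direction (-0.10 in pCPL and -0.66 in pOE).

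The 3 loci taken as TOPLESS-type corepressors, which Aux/IAA proteins recruit, had the direction of the ARF genes beside each line's own Teqing. All 3 rose in pCPL, by 0.13 to 1.01, where 35.0% of all genes rose. All 3 fell in pOE, with log2 fold changes of -0.53 to -0.99, where 36.8% of all genes fell. LOC_Os01g15020 was at 41.6 ± 1.15 FPKM in pCPL, against 20.1 ± 0.659 in Teqing2 (1.01, SE 0.0468, limma adjusted p = 7.18e-08), and at 22.5 ± 0.421 in pOE, against 45.7 ± 2.37 in Teqing3 (-0.99, SE 0.0511, limma adjusted p = 1.85e-07). LOC_Os08g06480 was at 65.0 ± 2.06 FPKM in pCPL, against 38.5 ± 0.578 in Teqing2, and at 39.9 ± 0.843 in pOE, against 64.0 ± 1.94 in Teqing3. LOC_Os03g14980 was the most abundant, at 117 ± 1.26 FPKM in pCPL, against 107 ± 0.634 in Teqing2, and at 87.8 ± 0.801 in pOE, against 127 ± 3.67 in Teqing3. These are also long transcripts, of 4124 to 4465 exon bases. Beside the other line's Teqing, with no test, the log2 differences of LOC_Os01g15020 and LOC_Os08g06480 were -0.13 and 0.02 in pCPL and 0.15 and 0.05 in pOE, while Teqing3 over Teqing2 was 1.14 and 0.72, so their shifts were not seen there. For LOC_Os03g14980 these differences were -0.12 in pCPL and -0.28 in pOE.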

How the data were processed

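RNA of callus from YIL25, pCPL, pOE and Teqing was sequenced by the authors as paired-end Illumina reads. They aligned these by TopHat2, with its defaults, to the IRGSP-1.0 (MSU7) genome and deposited FPKM per gene and library, in 1 table per line, each normalized separately. CASAVA 1.8, Cufflinks and bcl2fastq are also in the submitters' processing notes. The tables also hold the authors' fold changes and p-values, which were not used. Where a locus had several gene models, the one with the highest mean was taken.

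Lines were set against their own Teqing with limma 3.58.1 (R 4.3.3, trended prior) on log2(FPKM + 1), over all genes above a mean of 1 FPKM in either group, after the fit had been tested on simulated data. For pCPL, pOE and their Teqing, FPKM times exon length gave whole reads, within 0.05, for 100% of the values checked, all of genes with few reads. Reads recovered in the same way for all genes entered voom as an alternative. Members and lists were chosen with earlier results of these data known. Genes with the values of every library were the 4 most abundant of each family, members past both thresholds, up to 6 per comparison, and LOC_Os11g32110. The other single genes were named after their values were seen. Receptor, corepressor, marker and ARF subgroup lists were set by locus number, since the tables hold no names, and no sequence was used here. The replicate numbers shared by line and Teqing did not pair the libraries, since same-numbered deviations correlated at -0.0448 to 0.0086.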

Additional observations from a re-analysis of the deposited data

Results flagged for a closer look

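Every value here is a log2 fold change of a line over its own Teqing, given where all libraries of 2 lines lay on opposite sides of their Teqing libraries. The difference between the lines was not tested, because the tables were normalized separately. By the same rule, 22.8% of the 20867 genes tested in both tables were higher in pCPL and lower in pOE and 19.7% the reverse. Between YIL25 and pCPL the shares were 6.62% and 12.5% of 5559 genes, and between YIL25 and pOE 20.8% and 25.9% of 5564.

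Between pCPL and pOE, 17 ARF genes stood apart in this way. Higher in pCPL and lower in pOE were LOC_Os01g13520 (0.96 and -0.30), LOC_Os01g48060 (0.64 and -0.48), LOC_Os01g54990 (0.88 and -0.38), LOC_Os01g70270 (0.07 and -0.29), LOC_Os02g04810 (0.62 and -0.82), LOC_Os02g06910 (0.14 and -0.70), LOC_Os02g35140 (0.58 and -0.41), LOC_Os04g36054 (0.29 and -0.25) and LOC_Os04g43910 (0.36 and -0.34). The same held for LOC_Os06g09660 (0.42 and -0.33), LOC_Os06g46410 (0.60 and -0.58), LOC_Os06g47150 (0.43 and -0.67), LOC_Os06g48950 (0.07 and -0.42), LOC_Os11g32110 (1.13 and -1.12), LOC_Os12g29520 (0.73 and -1.12) and LOC_Os12g41950 (0.60 and -0.70). Only LOC_Os08g40900, by its short gene model, was lower in pCPL and higher in pOE (-1.17 and 0.97).

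Of the Aux/IAA genes 8 stood apart between pCPL and pOE. Lower in pCPL and higher in pOE were LOC_Os01g18360 (-1.24 and 0.54), LOC_Os03g43410 (-0.28 and 0.47), LOC_Os05g08570 (-0.33 and 1.09), LOC_Os05g48590 (-0.10 and 0.35) and LOC_Os09g35870 (-1.41 and 1.12). The reverse held for LOC_Os02g57250 (0.27 and -0.38), LOC_Os03g58350 (0.54 and -1.97) and LOC_Os07g08460 (0.17 and -0.33).

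YIL25 stood apart from pCPL at LOC_Os01g13030 (-0.11 in YIL25 and 0.51 in pCPL), LOC_Os01g53880 (0.57 and -0.29), LOC_Os02g57250 (-0.08 and 0.27), LOC_Os01g13520 (-0.62 and 0.96) and LOC_Os02g35140 (-0.38 and 0.58). It stood apart from pOE at LOC_Os01g08320 (-0.46 in YIL25 and 0.38 in pOE), LOC_Os01g13030 (-0.11 and 0.22), LOC_Os01g53880 (0.57 and -1.002), LOC_Os01g48060 (0.77 and -0.48), LOC_Os01g54990 (0.81 and -0.38), LOC_Os01g70270 (0.69 and -0.29), LOC_Os02g04810 (0.42 and -0.82) and LOC_Os02g06910 (0.23 and -0.70). With the length trend removed, the sign turned for LOC_Os02g06910 (-0.05), LOC_Os01g70270 (-0.07) and LOC_Os06g48950 (-0.10) in pCPL and for LOC_Os01g13030 (0.03) and LOC_Os02g57250 (0.13) in YIL25, the last also under a median-of-ratios scaling (0.10).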

How the results depend on the processing

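Counts here are of genes past both thresholds unless stated. Of the alternatives to family counts and medians and to counts of all genes called, 238 were classed as unchanged and 41 as moved. Of the calls of named genes, 12 were lost and 3 gained and none of these reversed. Counts of all genes classed as unchanged could still lie well apart from the report's fit, which called 2992 genes in pCPL and 3506 in pOE. A pseudocount of 0.1 called 3732 and 4287, and voom on recovered reads 4228 and 4841. Below the thresholds, the small change of LOC_Os02g57250 in YIL25 (-0.08) turned to 0.10 under median-of-ratios scaling and 0.13 with the length trend removed. Removing the length trend gave 1058 genes called in YIL25, of the 5742 that had a length, against 1730 of 8196 in the report's fit (18.4% against 21.1%), an Aux/IAA median of 0.17 in YIL25, 0 ARF genes higher and an ARF median of 0.36 in pCPL, and 0 ARF and 1 Aux/IAA gene lower and an ARF median of -0.18 in pOE. Median-of-ratios scaling gave medians of 0.49 (ARF) and 0.10 (Aux/IAA) in YIL25, where calls over all genes split into 834 higher and 794 lower, against 689 and 1041 without it, and 1 Aux/IAA gene lower in pOE. A pseudocount of 0.1 and voom on recovered reads each gave 3 ARF and 3 Aux/IAA genes higher in pCPL. Summing gene models gave 0 ARF genes lower in pCPL. With an adjusted p of 0.05 and no fold threshold, limma called 5957 genes in YIL25, 15284 in pCPL and 15955 in pOE. The members called were then 5 ARF higher and 2 lower and 1 Aux/IAA higher and 3 lower in YIL25, 18 and 2 ARF and 10 and 9 Aux/IAA in pCPL, and 3 and 18 ARF and 15 and 7 Aux/IAA in pOE. The other line's Teqing libraries, an alternative chosen after seeing the data, gave medians of 0.29 (ARF) and 0.33 (Aux/IAA) in pCPL and medians of -0.19 and 0.0908 in pOE. The cause of these shifts was not tested. Leaving out 1 library at a time gave 1 to 2 ARF genes higher in pCPL, 0 to 1 ARF gene higher and 1 to 3 Aux/IAA genes lower in pOE. The Aux/IAA median in pCPL ran between -0.03 and 0.11. The same step gave 1361 to 1478 genes called in YIL25, 2876 to 2975 in pCPL and 3357 to 3465 in pOE. The libraries behind these were the first of pCPL and of Teqing2 (2 ARF genes higher without either), replicates 1 and 3 of pOE and the second of Teqing3 (LOC_Os08g40900 called higher without any 1 of them, at up to 1.03), and those named in the report for the 2 Aux/IAA genes. With a replicate block, 1268 genes were called in YIL25, 2981 in pCPL and 3482 in pOE, and the counts of called members were as reported. LOC_Os03g58350 rested on 5 to 130 reads per library in pOE and Teqing3.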
